A study of Mus musculus with 10 samples.

Results

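Splicing factors are the proteins that bind to pre-messenger RNA and carry out, or steer, the removal of introns. They were taken as the genes of the table whose symbols begin with Snrp, Sf3a, Sf3b, Hnrnp, Srsf, Sfrs, Prpf, U2af or Lsm with a digit, which gave 76 genes of 12791. Sorted by symbol, 47 of them encode proteins of the small nuclear particles and of the spliceosome, 18 encode heterogeneous nuclear ribonucleoproteins (hnRNPs) and 11 encode serine- and arginine-rich (SR) proteins. The samples were hematopoietic progenitors of C57BL/6 mouse bone marrow, sorted as cells without lineage markers, with c-Kit and without Sca-1, and measured by bulk RNA sequencing. There were 3 naive libraries from mice without a tumor. Mice carrying GL261, a mouse glioma line, gave 4 libraries of KDR-negative and 3 of KDR-positive progenitors at week 4, a stage labelled late. KDR, a receptor for vascular endothelial growth factor, was read through GFP knocked into its gene, and about 20000 cells went into a sample of the GFP-positive sort. Separate mice are not named for the libraries of a group, so any spread of samples behind a p-value may be technical. How the authors' test estimated that spread is not known.

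The authors' deposited table gives, for each gene, a fold change, a mean level and a p-value in each of 2 comparisons. Its header does not name the groups compared, so the comparisons are called the first and the second. Positive fold changes mean a higher level in what is called the numerator group here, and negative ones a higher level in the denominator group. The denominators of both comparisons matched and are treated as 1 group, so the comparisons share it and no overlap between them is given. Levels of the 3 groups were worked out from each comparison's mean and fold change, and are no library's own value. They are in the CPM of the header, a unit for scaled read counts, and how the authors scaled them is not known. These levels add up to 2127125 in the first numerator group and 756537 in the denominator group. With totals this unlike, they cannot be read as plain shares of a library's reads. Calls of higher and lower genes rest on an adjusted p under 0.05 over all 12791 genes. The standard errors given are implied ones, worked back from the authors' fold change and p under a normal approximation.

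Introns are removed by the spliceosome, which is built anew on each transcript from small nuclear ribonucleoproteins (snRNPs). In the major spliceosome U1 marks the start of the intron and U2 its branch point, and U4, U5 and U6 then join as a preformed tri-snRNP. SR proteins mostly promote the use of the exons they bind, and hnRNPs coat the transcript and often oppose exon inclusion. Genes of this machinery are active in all nucleated cells. In the blood-forming system SF3B1, SRSF2 and U2AF1 are also known as genes that are recurrently mutated in human myelodysplastic disease, and nothing about mutations was measured in these samples.

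In the first comparison 44 of the 76 genes were higher in the numerator group, 1 was lower and 31 were not called. Over all genes 22.3% were called, 18.8% as higher and 3.49% as lower. The median log2 fold change of the 76 genes was 0.95 in the authors' deposited table, against -0.13 over all genes, and 66 of the 76 lay above that median. The derived CPM add up to 2127125 in the first numerator group and 756537 in the denominator group. Setting these totals equal lowers every log2 fold change of the first comparison by 1.49 and the median of all genes to -1.62. Of the 44 genes called higher, 25 then keep a positive fold change and 19 turn negative, while the distance of each gene from the median of all genes stays as it was. In bulk RNA a changed share of a cell type and a changed amount of RNA per cell cannot be told apart. Here neither can be told apart from the effect of the authors' scaling. Directions below are those of the authors' scaling, and those that flip are named. In the second comparison none of the 76 was called, against 0.109% of all genes (0.0704% higher, 0.0391% lower). None of the 76 reached an unadjusted p under 0.05 there either, against 43 of all 12791 genes. Evenly spread p-values would put a share of 0.05 of the genes under that limit, far more than these 43. With p-values this high over all genes, an empty count among the 76 was likely beforehand and does not show an absence of change. No other tool could be run on this table.

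**Figure D1:**
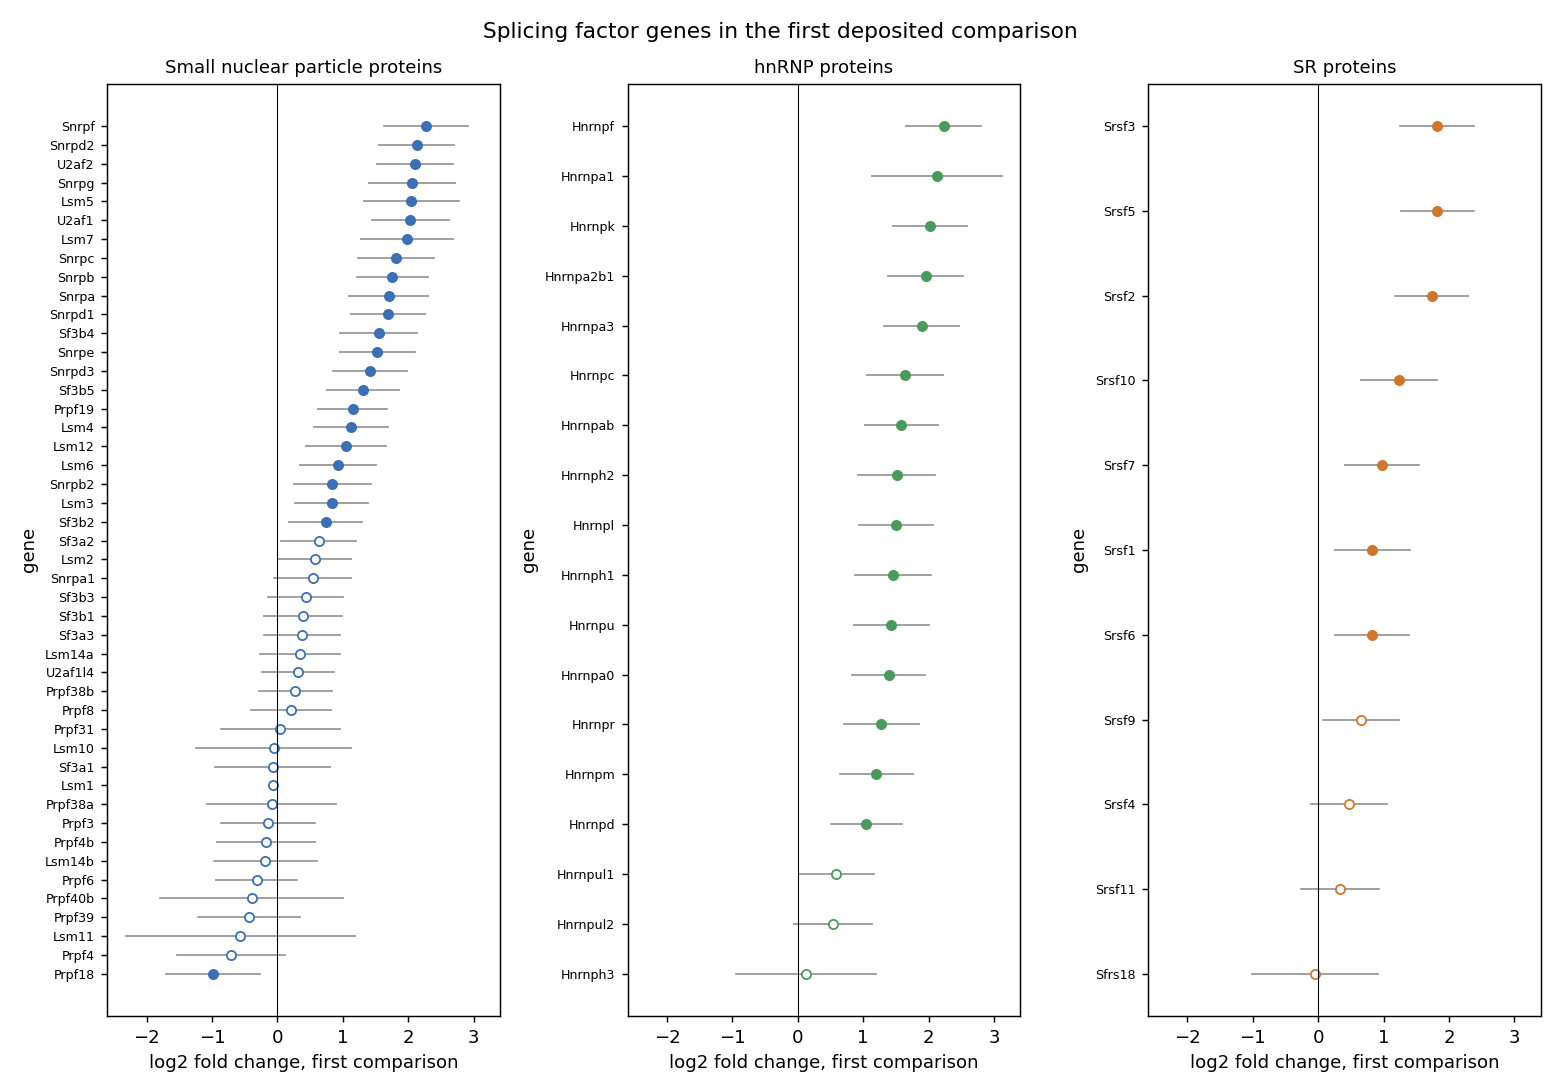
Log2 fold change of 75 of the 76 splicing factor genes in the first comparison (x axis) by class and gene (y axis), with filled points for genes called at an adjusted p under 0.05 and bars for the implied 95% interval (none for Lsm1, whose p was 1). Most hnRNP genes and all Sm proteins lie to the right, Prpf genes lie around 0, and with equal totals of derived CPM every point would move left by 1.49, which takes 19 of the 44 genes called higher below 0.

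The 7 Sm proteins form the ring that encloses the small nuclear RNA in the U1, U2, U4 and U5 particles. All 7 measured genes were higher in the first numerator group, at log2 fold changes of 1.41 to 2.27 with a median of 1.75 according to the authors' deposited table. With equal totals they run from -0.08 for Snrpd3, the single Sm gene that flips, to 0.78 for Snrpf. Derived levels of Snrpd2 were 456 CPM in the denominator group, 423 CPM in the second numerator group and 1996 CPM in the first numerator group. The first numerator group thus stood alone, with the other two groups close together. The authors' deposited table gives Snrpd2 a log2 fold change of 2.13 in the first comparison (implied SE 0.29, adjusted p = 8.1e-12), and one of -0.06 in the second (adjusted p = 1). Snrpf went from 150 CPM in the denominator and 151 CPM in the second numerator group to 723 CPM in the first numerator group. Its log2 fold change of 2.27 was the largest of the 76 in the authors' deposited table (implied SE 0.33, adjusted p = 9.7e-11). Snrpg had 940, 845 and 3917 CPM in the denominator, second numerator and first numerator groups, and 2.06 as its log2 fold change in the authors' deposited table (adjusted p = 1.3e-08). Snrpb, whose gene yields the alternative Sm proteins B and B', stood at 1.75 (adjusted p = 6.4e-09) in the authors' deposited table, with Snrpd1 at 1.69 (1e-07), Snrpe at 1.52 (2.8e-06) and Snrpd3 at 1.41 (9.5e-06). Every Sm gene therefore passed the threshold, as did many other genes of their level. Of other genes between 6 and 7 log2 CPM in the second numerator group, 63% were called higher in the first comparison. Between 7 and 8 log2 CPM this share was 97.2%, and at 8 log2 CPM and over it was 98.4%. In the second comparison the log2 fold changes of the Sm genes lay between -0.12 and 0.07 in the authors' deposited table.

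The bases just before the transcription start are shown for 5 Sm genes and for 1 gene each of the SR and hnRNP classes. They let the start regions of these genes be compared. Each line holds the 150 bases before the start, from RefSeq on GRCm38.p6, written 5′ to 3′ on the strand of the gene. On the forward strand these are Snrpd2 at chr7:19149688-19149837, Snrpd3 at chr10:75517892-75518041, Snrpg at chr6:86371390-86371539 and Srsf5 at chr12:80945349-80945498. On the reverse strand these are Snrpe at chr1:133610281-133610430, Snrpf at chr10:93589659-93589808 and Hnrnpk at chr13:58402118-58402267. Capitals mark the CCAAT box (CCAAT), the GC box (GGGCGG) and the core of ETS factor sites (CGGAAG), read on either strand.
Snrpd2: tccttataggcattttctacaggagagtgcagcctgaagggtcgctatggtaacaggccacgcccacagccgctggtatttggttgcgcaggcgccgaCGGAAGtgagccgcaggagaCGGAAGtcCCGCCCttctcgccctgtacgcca
Snrpd3: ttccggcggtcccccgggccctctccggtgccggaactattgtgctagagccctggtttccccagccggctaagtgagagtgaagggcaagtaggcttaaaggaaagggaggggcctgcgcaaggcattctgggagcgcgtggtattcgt
Snrpe: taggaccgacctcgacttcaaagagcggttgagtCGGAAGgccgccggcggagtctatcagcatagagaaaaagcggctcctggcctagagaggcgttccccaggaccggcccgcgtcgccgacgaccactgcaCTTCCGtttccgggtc
Snrpf: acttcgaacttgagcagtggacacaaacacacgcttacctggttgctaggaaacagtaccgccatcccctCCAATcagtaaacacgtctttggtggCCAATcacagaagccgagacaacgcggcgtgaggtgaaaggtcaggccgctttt
Snrpg: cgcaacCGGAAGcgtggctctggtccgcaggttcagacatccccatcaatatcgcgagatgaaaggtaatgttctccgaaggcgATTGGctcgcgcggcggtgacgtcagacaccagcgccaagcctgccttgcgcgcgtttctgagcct
Srsf5: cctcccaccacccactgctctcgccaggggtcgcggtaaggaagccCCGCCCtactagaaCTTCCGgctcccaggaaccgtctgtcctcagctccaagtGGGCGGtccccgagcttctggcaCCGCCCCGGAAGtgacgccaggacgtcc
Hnrnpk: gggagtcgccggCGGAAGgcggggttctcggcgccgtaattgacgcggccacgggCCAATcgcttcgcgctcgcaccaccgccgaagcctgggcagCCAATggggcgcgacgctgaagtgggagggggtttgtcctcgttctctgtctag

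Across the 250 bases before the start, 64 of the 76 genes had 84 windows in the RefSeq table, and 32851 windows of that length were listed for all genes. The letters CGGAAG stood on either strand in 47.6% of the windows of splicing factor genes and in 13.6% of all windows. GGGCGG stood in 64.3% and 32.7%, and CCAAT in 47.6% and 33.8%. The letters TATAAA were found in 6.0% of the windows against 12.4% of all, TGACGT in 16.7% against 6.5% and CACGTG in 9.5% against 6.0%. The median GC content was 60.6% in the windows of these genes and 52.4% in all, and letters rich in G and C are more frequent in such sequence. Of the 51 windows of genes called higher in the first comparison, 56.9% held CCAAT and 43.1% CGGAAG. Of the 33 windows of the remaining splicing factor genes, 33.3% and 54.5% did. For GGGCGG the shares in the same order were 64.7% and 63.6%, and for TATAAA 7.8% and 3.0%. For TGACGT they were 19.6% and 12.1%, and for CACGTG 9.8% and 9.1%. Genes with several windows count more than once, and these differences were not tested. Snrpf and Hnrnpk each show CCAAT at 2 places in the lines above, Snrpg at 1 place, and Snrpd3 shows none of the 3 marked words. These matches describe letters in a window and say nothing about a factor bound there.

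The proteins that single out U1 and U2 were also mostly higher. Snrpa and Snrpc belong to U1, and the authors' deposited table gives them log2 fold changes of 1.70 (adjusted p = 5.5e-07) and 1.81 (1.7e-08) in the first comparison. Snrpa1 and Snrpb2 form a pair on the U2 RNA. Their log2 fold changes in the authors' deposited table were smaller, 0.84 for Snrpb2 (adjusted p = 0.028) and 0.54 for Snrpa1 (0.22, not called). With equal totals Snrpb2 also turns negative, since its fold change is below the shift of 1.49.

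U2AF recognises the end of the intron. Its large subunit U2af2 binds the pyrimidine-rich tract and its small subunit U2af1 the AG that follows. U2af2 had 166 CPM in the denominator, 165 CPM in the second numerator and 715 CPM in the first numerator group, and U2af1 had 221, 213 and 904 CPM in the same order. Both subunits thus stood higher in the first numerator group than in the other groups. Between 7 and 8 log2 CPM in the second numerator group, where both lie, 97.2% of 143 other genes were called higher too. The median log2 fold change of those other genes in the first comparison was 1.95. The authors' deposited table gives 2.11 for U2af2 (implied SE 0.29, adjusted p = 2.2e-11) and 2.03 for U2af1 (implied SE 0.30, adjusted p = 2.5e-10) as log2 fold changes in the first comparison, while the second has 0.04 and 0.00. U2af1l4, a relative of U2af1, was not called, at 0.32 (adjusted p = 0.48) in the authors' deposited table.

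SF3A and SF3B are the protein complexes that hold U2 on the branch point. The 8 of their genes that match the rule by symbol did not move as 1 block. In the first comparison 3 of the 8 were higher and none was lower, their median log2 fold change being 0.53 according to the authors' deposited table. Sf3b4, which touches the transcript upstream of the branch point, was at 1.55 (adjusted p = 3e-06) in the authors' deposited table. Sf3b5, a small subunit, was at 1.31 (3.4e-05) and Sf3b2 at 0.74 (0.044) in the authors' deposited table. Sf3b5 and Sf3b2 turn negative with equal totals, at -0.18 and -0.75. Sf3b1, the large scaffold that closes around the branch point adenosine, was not called. Its derived levels were 58.0 CPM in the denominator group, 58.0 CPM in the second numerator group and 75.9 CPM in the first numerator group. In the authors' deposited table this was a log2 fold change of 0.39 (adjusted p = 0.41), whose implied 95% interval runs from -0.20 to 0.98. Sf3b3, the other large subunit, was at 0.43 (adjusted p = 0.34) in the authors' deposited table, and the 3 SF3A genes were at -0.07 for Sf3a1, 0.63 for Sf3a2 and 0.37 for Sf3a3, none of them called.

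The LSm proteins resemble Sm proteins and bind the end of U6 RNA as a ring of their own. Of the 6 measured genes of that ring 5 were higher in the first comparison and none was lower, their median log2 fold change being 1.03 according to the authors' deposited table. Lsm5 was at 2.05 (adjusted p = 3.6e-07), Lsm7 at 1.98 (4.9e-07), Lsm4 at 1.12 (0.00073), Lsm6 at 0.93 (0.0095) and Lsm3 at 0.83 (0.018) in the authors' deposited table. Lsm2 was at 0.57 (0.15) there and was not called. Lsm4, Lsm6 and Lsm3 lie below the shift of 1.49 and turn negative with equal totals, and Lsm5 and Lsm7 do not.

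The remaining 6 LSm genes matched the rule by symbol and work mostly outside intron removal. Lsm1 serves messenger RNA decay in the cytoplasm, Lsm10 and Lsm11 sit in the U7 particle that trims histone transcripts, and Lsm14a and Lsm14b belong to cytoplasmic granules. Of these 6, only Lsm12 was called, as higher at 1.05 (adjusted p = 0.0044) in the authors' deposited table, a value that also turns negative with equal totals. Their median was -0.07 in the authors' deposited table, close to the -0.13 of all genes. Lsm11 was the lowest of them in the authors' deposited table, at -0.57 with an implied standard error of 0.89, and was not called. Its derived levels were 8.29 CPM in the denominator group and 5.58 CPM in the first numerator group. At levels this low the interval, from -2.32 to 1.18, leaves the direction unknown.

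The Prpf genes, named after yeast mutants that fail in pre-messenger RNA processing, had the lowest median of these sets. Of 13 genes 1 was higher, 1 was lower and 11 were not called in the first comparison, and the median log2 fold change was -0.18 in the authors' deposited table. Prpf19, a ubiquitin ligase and core of the complex that joins as the spliceosome is activated, was the gene called higher, at 1.15 (adjusted p = 0.00018) in the authors' deposited table, and turns negative with equal totals. Prpf18, which acts at the second step of splicing, was the single gene of the 76 called lower. It had 28.5 CPM in the denominator, 29.2 CPM in the second numerator and 14.3 CPM in the first numerator group. In the authors' deposited table its log2 fold change was -0.99 (implied SE 0.37, adjusted p = 0.033) in the first comparison, against 0.04 in the second. It fell short of an adjusted p under 0.01 and of a log2 fold change of size 1. Prpf8, the largest protein at the catalytic centre, had 63.8 CPM in the denominator, 68.8 CPM in the second numerator and 73.6 CPM in the first numerator group. Its log2 fold change of 0.21 (adjusted p = 0.73) in the authors' deposited table has an implied interval from -0.41 to 0.82, which allows a moderate change either way. The tri-snRNP proteins Prpf3, Prpf4, Prpf6 and Prpf31 were at -0.15, -0.71, -0.32 and 0.04 in the authors' deposited table, and none was called. U1-linked Prpf39 and Prpf40b were at -0.44 and -0.39 there, and neither was called.

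**Figure D2:**
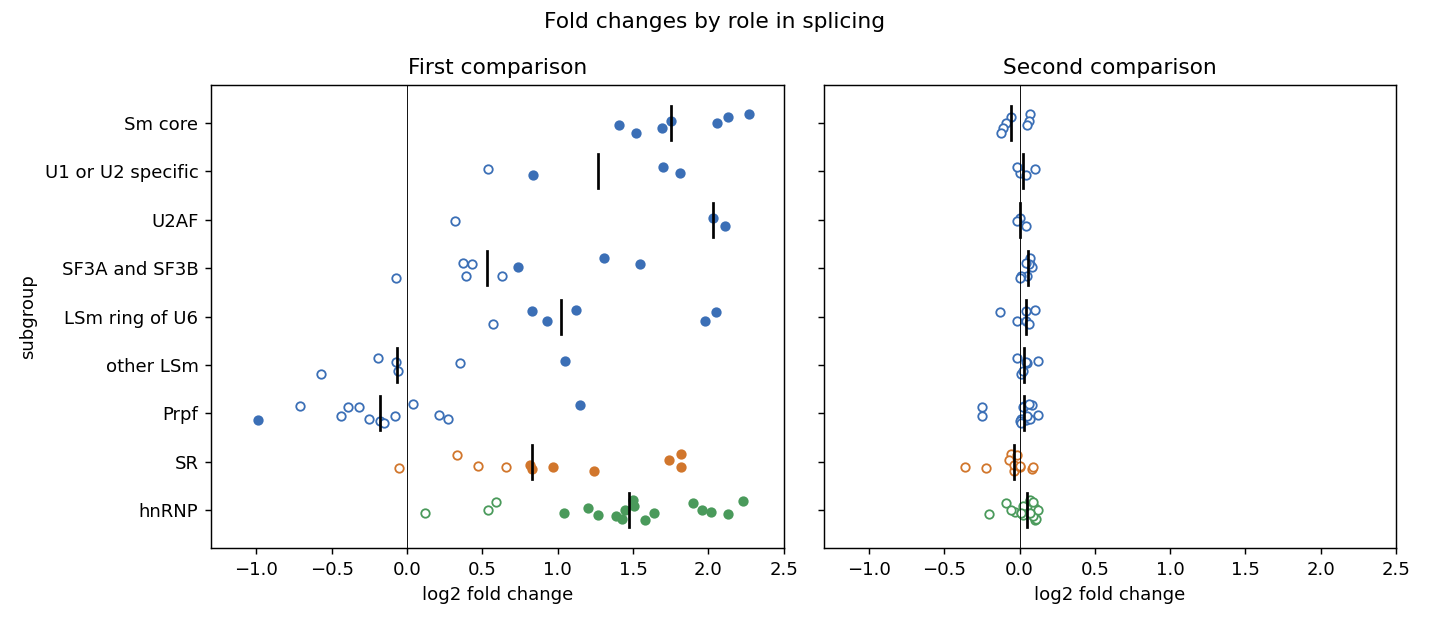
Log2 fold changes of the splicing factor genes (x axis) by role (y axis) in the first comparison (left) and the second (right), with 1 point a gene, filled where called, and a bar at the median. In the first comparison the medians run from -0.18 for Prpf to 2.03 for U2AF, values that equal totals of derived CPM would lower by 1.49, and in the second every gene lies between -0.36 and 0.12.

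The hnRNP class had the highest median of the classes in the first comparison. Of 18 genes 15 were higher and none was lower, all 18 fold changes were above 0, and the median log2 fold change was 1.47 in the authors' deposited table, or -0.02 with equal totals. Hnrnpf, which binds runs of G near splice sites, had 1034 CPM in the denominator, 1043 CPM in the second numerator and 4849 CPM in the first numerator group. The first numerator group was 4.69 times the denominator group, and the second numerator group sat with the denominator. The authors' deposited table gives it a log2 fold change of 2.23 (implied SE 0.29, adjusted p = 6.2e-13), the smallest p of the 76. Hnrnpk, which binds runs of C, had 355, 336 and 1439 CPM in the denominator, second numerator and first numerator groups. In the authors' deposited table that was 2.02 (implied SE 0.29, adjusted p = 9.1e-11). The related A-type proteins Hnrnpa2b1 and Hnrnpa3, packaging proteins that often repress exons, were at 1.96 (4.8e-10) and 1.90 (2.7e-09) in the authors' deposited table, and Hnrnpa0 was at 1.39 (1.3e-05). Hnrnpa1, the most studied splicing repressor of this type, stood at 5.64, 5.47 and 7.77 log2 CPM in the denominator, second numerator and first numerator groups. Its log2 fold change of 2.13 had the widest implied error of the called genes, 0.51, in the authors' deposited table (adjusted p = 0.00021).

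Hnrnpc, which binds runs of U along new transcripts, was at 1.64 (adjusted p = 4e-07) in the authors' deposited table and Hnrnpab at 1.58 (3.4e-07). Hnrnpl, a binder of CA repeats, went from 89.6 CPM in the denominator group to 253 CPM in the first numerator group (adjusted p = 1.6e-06 in the authors' deposited table). Among binders of G runs, Hnrnph1 and Hnrnph2 were at 1.45 (1.2e-05) and 1.51 (5.7e-06) in the authors' deposited table. Hnrnpu, a large scaffold attached to chromatin, was at 1.43 (7.9e-06) there, with Hnrnpr at 1.27 (0.00012), Hnrnpm at 1.20 (0.00018) and Hnrnpd, also known for binding AU-rich elements, at 1.04 (0.0013). With equal totals Hnrnpu and Hnrnpm turn negative, at -0.06 and -0.29, and so do Hnrnph1, Hnrnpa0, Hnrnpr and Hnrnpd, which lie below the shift of 1.49. The 3 genes not called were Hnrnpul1 at 0.59 (adjusted p = 0.15), Hnrnpul2 at 0.54 (0.22) and Hnrnph3 at 0.12 (0.98) in the authors' deposited table. Hnrnph3 stood at 4.70 log2 CPM in the denominator, 4.77 in the second numerator and 4.82 in the first numerator group, and its implied interval of -0.95 to 1.19 would hold a change of size 1 either way. The fold change of Hnrnph3 was thus smaller than those of its relatives Hnrnph1 and Hnrnph2, a difference that was not tested.

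Among the SR proteins 7 of 11 were higher and none was lower in the first comparison, their median log2 fold change being 0.83 according to the authors' deposited table, or -0.66 with equal totals. The 3 largest values were close together. Srsf5, also known as SRp40, had 238 CPM in the denominator, 181 CPM in the second numerator and 842 CPM in the first numerator group. In the authors' deposited table this was 1.82 (implied SE 0.29, adjusted p = 3.5e-09) in the first comparison. Srsf3, the smallest SR protein and an adaptor for RNA export, had 339, 316 and 1196 CPM in the same order of groups. Its log2 fold change in the authors' deposited table was 1.82 as well (implied SE 0.29, adjusted p = 5.1e-09). Srsf2, which binds enhancer elements within exons, had 148, 138 and 494 CPM and a log2 fold change of 1.74 (adjusted p = 1.4e-08) in the authors' deposited table.

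A second tier of SR genes had smaller values. Srsf10, which acts as a repressor when dephosphorylated, was at 1.24 (adjusted p = 0.00025) in the authors' deposited table. Srsf7 was at 0.97 (0.0047), Srsf1, the first SR protein to be described, at 0.83 (0.023) and Srsf6 at 0.82 (0.025) in the authors' deposited table. Only Srsf5, Srsf3 and Srsf2 keep a positive sign with equal totals, at 0.33, 0.33 and 0.25, while Srsf10, Srsf7 and Srsf1 become -0.25, -0.52 and -0.66 and Srsf6 is negative too. Srsf9 missed the threshold with 0.66 (adjusted p = 0.1) in the authors' deposited table, as did Srsf4 with 0.47 (0.29) and Srsf11 with 0.33 (0.5). Sfrs18, now called Pnisr and a member by its older symbol, had 29.2, 25.1 and 28.2 CPM in the denominator, second numerator and first numerator groups. In the authors' deposited table its -0.05 (adjusted p = 1) was the single negative value of the class, and it turns to 0.08 when the values are recentred on the median of all genes.

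**Figure D3:**
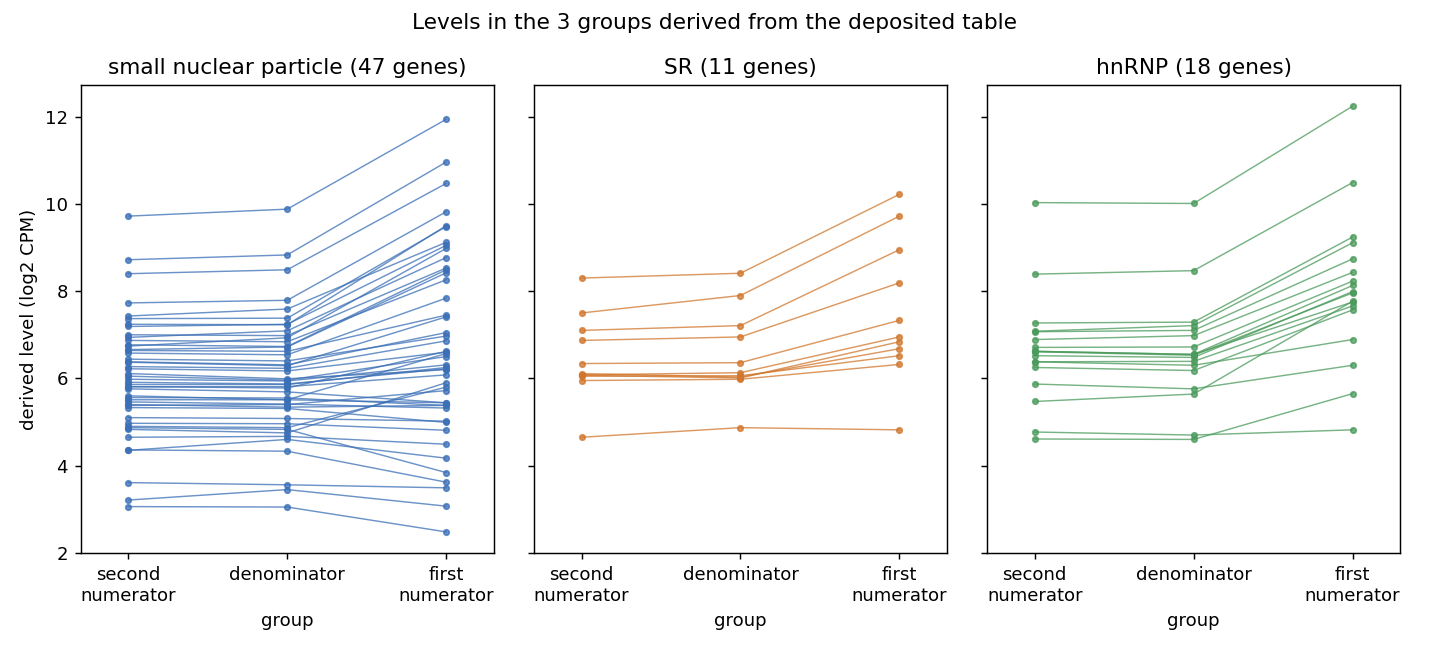
Derived level (y axis, log2 CPM) of each splicing factor gene in the second numerator, denominator and first numerator groups (x axis), with 1 line a gene and 1 panel a class. Lines are nearly flat between the second numerator and the denominator group, which differ by at most 0.39 in any of the 76 genes, and mostly climb to the first numerator group, a climb that equal totals of derived CPM (a shift of 1.49) would turn into a descent for 19 of the 44 genes called higher.

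The second comparison gave no call in any class, and its fold changes were small. Medians in the authors' deposited table were 0.04 for the small nuclear particle genes, 0.05 for the hnRNP genes and -0.04 for the SR genes, against 0.00 over all genes. In the SR class 9 of 11 genes had a negative sign, against 4 of 18 in the hnRNP class and 13 of 47 in the small nuclear particle class. No implied 95% interval of a single gene left out 0, which restates that none had an unadjusted p under 0.05. Srsf5 had the largest change in size, -0.36 (implied SE 0.27, unadjusted p = 0.19, adjusted p = 1) in the authors' deposited table, with an implied 95% interval from -0.89 to 0.18. Prpf39 was at -0.25 (interval -0.96 to 0.46), Sfrs18 at -0.22 (interval -0.84 to 0.39) and Hnrnpa1 at -0.20 (interval -1.15 to 0.76) in the authors' deposited table. For Hnrnpf, with 0.07, the interval of -0.48 to 0.62 leaves out the 2.23 that the authors' deposited table gives in the first comparison. Whether the 2 comparisons differ for a gene was not tested, since they share the denominator group.

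The fold change of the first comparison followed the level of a gene. Over the 76 genes Spearman's rho between the log2 fold change and the log2 CPM of the second numerator group, which is neither side of that comparison, was 0.86 (Pearson's r 0.81). It was 0.87 over the 47 small nuclear particle genes, 0.70 over the 18 hnRNP genes and 0.95 over the 11 SR genes. Over 12574 other genes it was 0.34, but 5319 of these lay under 4 log2 CPM in that group, against 3 of the 76. The values of 0.86 and 0.34 thus come from unlike ranges of level. With level counted per kilobase of transcript, rho was 0.77 over the 76 genes. These are descriptions over genes of the same libraries, and genes are no replicates.

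Set beside other genes of the same level, the splicing factor genes were close to them in the upper classes of level. At 8 log2 CPM and over, 6 of 6 were higher, against 98.4% of 192 other genes, and their median log2 fold change was 2.04 against 2.06 in the authors' deposited table. Between 7 and 8 log2 CPM 11 of 11 were higher, against 97.2% of 143 other genes, with medians of 1.82 and 1.95 in the authors' deposited table. Between 6 and 7 log2 CPM, where 29 of the 76 lie, 21 were higher (72.4%), against 63% of 1051 other genes, with medians of 1.20 and 0.97 in the authors' deposited table. Between 5 and 6 log2 CPM 3 of 17 were higher (17.6%), against 15.8% of 2878 other genes, and the medians in the authors' deposited table were 0.32 and 0.09. Between 4 and 5 log2 CPM 3 of 10 were higher and 1 was lower, against 8.96% and 5.72% of 2991 other genes. Below 4 log2 CPM none of 3 was called, against 11.9% higher and 1.73% lower among 5319 other genes. The shares of splicing factor genes and of other genes thus lay farthest apart between 4 and 5 log2 CPM, where 30% of the splicing factor genes were higher, and these differences were not tested.

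**Figure D4:**
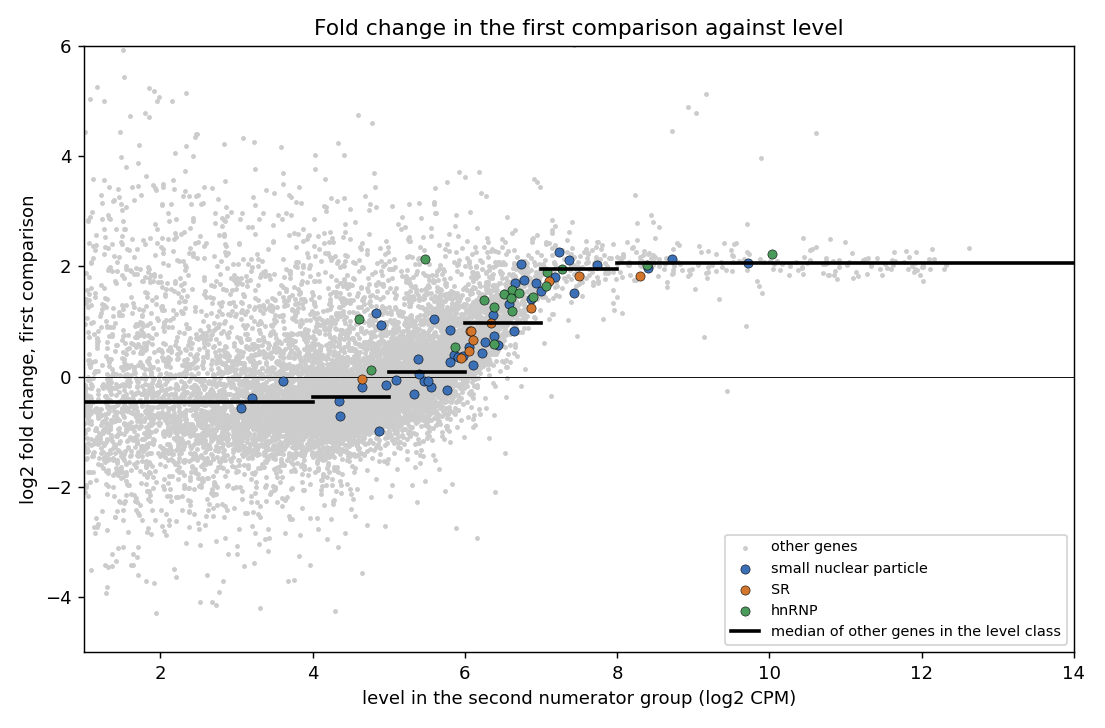
Log2 fold change of the first comparison (y axis) against the level in the second numerator group (x axis, log2 CPM), for the 76 splicing factor genes by class (coloured) and other genes (grey), with bars at the median of the other genes in each class of level and a few genes beyond the axes not drawn. The coloured points follow the grey ones from around -0.4 at low level to around 2 at high level, and with equal totals of derived CPM all points would move down by 1.49.

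Many of these genes have near-identical copies in the genome, most of them annotated as pseudogenes, and the sources used here do not say how reads matching several places were counted. For each gene the coding sequence (GENCODE vM21 on GRCm38, a later build than the mm8 of the submitters' processing notes) was cut into all words of 36 bases, and the share also found in another annotated gene was counted. In 25 genes that share was at least 50%, in 28 it was above 0 and below 50%, and 23 shared no word with another gene. Of the 25 genes 23 were called higher, with a median log2 fold change of 1.82 according to the authors' deposited table. Of the 28 genes 13 were called higher and 1 lower, with a median of 0.61, and of the 23 genes without shared words 8 were called higher, their median being 0.39, in the authors' deposited table. The share of words and the fold change had a Spearman's rho of 0.66 over the 76 genes.

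Hnrnpa1 shares 83.2% of its words with 25 other genes, all pseudogenes, and Hnrnpa3 shares 97.7% with 46, of which 44 are pseudogenes. Hnrnpf shares 97.3%, Srsf3 92.8%, and Snrpg and Lsm7 share all of theirs. For such genes the values in the authors' deposited table are uncertain, since reads of a copy and of the gene may have been mixed or dropped. The 8 genes without shared words that were called higher are Snrpd3, Sf3b5, Lsm4 and Lsm3 among the small nuclear particle genes, Hnrnpu, Hnrnpa0 and Hnrnpm among the hnRNP genes and Srsf6 among the SR genes, and all 8 turn negative with equal totals. These names come from a split made after the values were seen. The level, not corrected for length, was highest in the class with the most shared words, with a median of 7.08 log2 CPM in the second numerator group for the 25 genes, 5.94 for the 28 and 6.08 for the 23. Fold change also ran with coding length, at a Spearman's rho of -0.47. Of 17 genes with under 500 coding bases 14 were higher, and of 15 with at least 2000 coding bases 3 were. The part of level, length and copies in the fold changes was not tested.

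**Figure D5:**
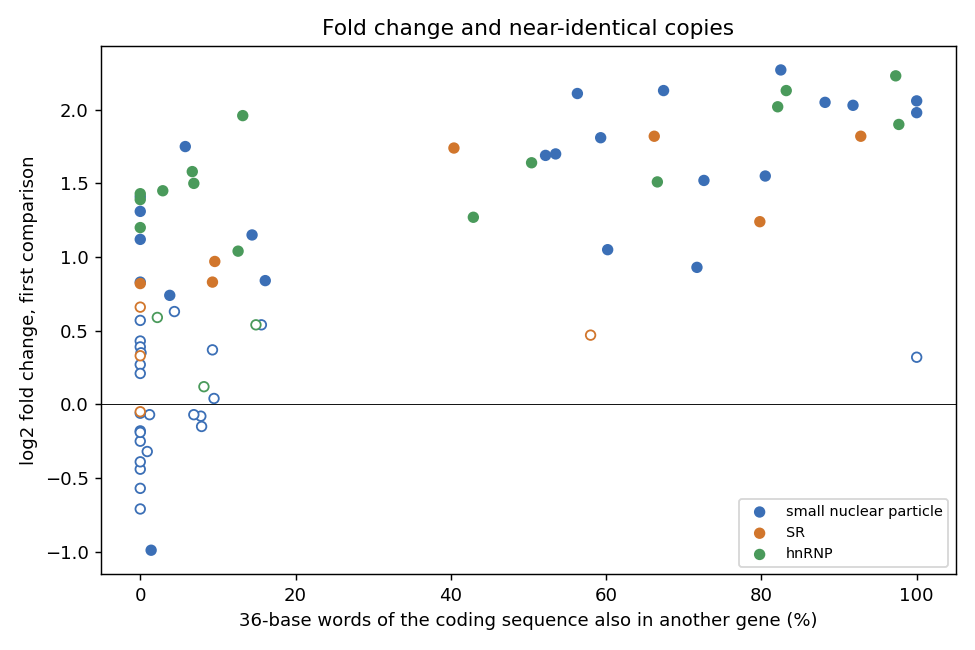
Log2 fold change of the first comparison (y axis) against the percentage of 36-base coding words that also occur in another annotated gene (x axis), with 1 point for each of the 76 splicing factor genes, filled where called. Of the 25 genes at 50% or more, 23 are called higher, and of the 23 genes without shared words, 8 are, before the shift of 1.49 that equal totals of derived CPM would bring.

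Other genes of the splicing machinery, taken from a list of 128 whose symbols fall outside the rule, were all measured. In the first comparison 42 of them were higher and 1 was lower, and their median log2 fold change was 0.27 in the authors' deposited table, or below 0 with equal totals. In the second none was called. Among 21 helicases and tri-snRNP genes 7 were higher. They include Ddx5, a helicase with many nuclear roles, at 2.02 (adjusted p = 3.5e-12), Nhp2l1, which binds the U4 RNA, at 2.08 (6.9e-10) and Ppih, a prolyl isomerase of the tri-snRNP, at 1.91 (1.4e-08) in the authors' deposited table. The exon junction complex, left on transcripts where an intron was removed, had 5 of 8 genes higher, with Rnps1 at 1.74, Eif4a3 at 1.54 and Alyref at 1.30 in the authors' deposited table. Of 35 further splicing regulators 15 were higher and 1 was lower. Among them Ybx1 was at 2.03 and Ewsr1, an RNA-binding protein, at 1.81 in the authors' deposited table, while Mbnl3, a relative of muscleblind, was lower at -1.31 (adjusted p = 0.032).

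The counts of the other groups of that list stand beside the 18.8% of all genes called higher, which several of them lie near. Of 19 genes of the PRP19 complex and of the 2 catalytic steps 4 were higher, among them Cdc5l at 1.32 (adjusted p = 0.00029) and Cwc22 (adjusted p = 0.0021) in the authors' deposited table. Of 13 SR-related proteins and SR kinases 2 were higher, Tra2b at 1.91 and Tra2a at 0.83 in the authors' deposited table, both of them activators of exons rich in GAA. Of 10 genes that help to recognise the branch point and the end of the intron 5 were higher, among them Rbm17 at 1.18 and Dnajc8 at 0.91 in the authors' deposited table. Assembly of the Sm ring on the RNA, carried out by the SMN complex and its helpers, had 3 of 15 genes higher, Clns1a at 0.93, Gemin6 at 0.84 and Gemin8 (adjusted p = 0.019) in the authors' deposited table. Genes of the minor spliceosome, which removes a rare class of introns, had 1 of 7 higher, Zcrb1 at 0.75 (adjusted p = 0.025) in the authors' deposited table. All of the genes named here but Ddx5, Nhp2l1, Ppih, Rnps1, Eif4a3, Ybx1, Ewsr1 and Tra2b lie below the shift of 1.49 and are negative with equal totals.

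Marker genes of macrophages and of megakaryocytes and platelets were also higher in the first numerator group. All 9 measured macrophage markers were higher in the first comparison, at 4.01 for Vcam1 to 5.87 for Vsig4 in the authors' deposited table, and their summed derived level went from 6.92 to 11.72 log2 CPM. In the second numerator group that sum was 5.57 log2 CPM, and C1qa was called lower in the second comparison. All 7 markers of megakaryocytes and platelets were higher too, Gp9 the least and Ppbp the most (log2 fold change 4.11 in the authors' deposited table), with sums of 7.43 and 10.60 log2 CPM. Of 9 markers of the mature lineages that the sort removes 5 were measured, of which 1 was higher and 2 were lower, and of 6 T and NK cell markers 4 were measured, of which 1 was higher and 3 were lower. The genes behind the sort, Kit at -0.60, Ly6a at 0.43 and Kdr at 1.26 in the authors' deposited table, were not called. Kdr had only -0.09, -1.40 and 1.17 log2 CPM in the denominator, second numerator and first numerator groups. With an implied standard error of 1.42 the direction of its change is unknown. Which cells the marker transcripts came from was not measured. Any part of such cells in the values of the splicing factor genes was not tested.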

How the data were processed

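TruSeq libraries (10, in 3 groups by label) were made from 0.1 ug of RNA, per the labels' protocols. Bowtie 0.12.2 and mm8 stand in the submitters' processing notes. No source used here names the counting and testing programs. The deposited table holds the authors' log2 fold changes and mean log2 CPM, read as log2, and the authors' p-values with adjusted values, per the file headers. It has no value per library, so depth and replicate spread are unknown and the planned test on counts could not be run. The adjusted values equal a Benjamini-Hochberg adjustment over 12791 genes. Group levels were derived with weights of 0.48 and 0.59 for the numerator groups, fitted on 9044 genes above 3 log2 CPM. The weights were those that made the 2 denominators differ least, by a median absolute deviation of 0.002 log2. With equal weights it was 0.0087. Between the denominator and the second numerator group it was 0.058 with the fitted weights and 0.064 with equal weights. The fit of the weights was tested on simulated data built with a shared denominator. That test could not show whether the real denominators are 1 group. Analyses used Python 3.11.15 with pandas 2.3.3, numpy 2.4.6 and scipy 1.17.1. The members and lists were chosen with earlier results of these data known. Named per class were the 6 smallest p among called genes, lower genes, the 3 lowest fold changes, the 3 smallest p of the second comparison, the highest and lowest level and, by identity, Sm, SF3B, U2AF, Srsf2 and Prpf8. Among the 128 other splicing genes these were up to 3 per group with the smallest p among called genes. Other genes were named after their values were seen. Values of 1 member and 1 other splicing gene are not reported here, although both are in the counts. Alternatives were other thresholds, a level filter, recentring, equal totals and equal weights and, added after seeing the data, the split by shared words.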

Additional observations from a re-analysis of the deposited data

How the results depend on the processing

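The count of 45 called genes stayed within 1.5 times of its value at an adjusted p under 0.01 (39) or 0.10 (45), at a log2 fold change of at least 1 in size (37) and with a mean of at least 4 CPM, which all 76 genes had (45). The 1 lower gene, Prpf18, was lost at an adjusted p under 0.01 and at a fold change of size 1, where 0 were lower, and the higher calls of Srsf1, Srsf6, Sf3b2, Lsm3 and Snrpb2 were lost at 0.01. The SR genes called, all of them higher, went from 7 to 4 at a fold change of size 1. Without genes that share coding words, which leaves 23 genes, 8 were called: 1 SR, 3 hnRNP and 4 small nuclear particle genes. With equal totals the medians of the first comparison turned negative, at -0.66 for SR, -0.02 for hnRNP and -0.92 for small nuclear particle genes, as did Srsf10 (-0.25), Srsf7 (-0.52), Srsf1 (-0.66), Hnrnpu (-0.06), Hnrnpm (-0.29), Snrpd3 (-0.08), Sf3b2 (-0.75) and Sf3b5 (-0.18). This follows from the uniform shift of 1.49. Recentred on the median of all genes, the class medians were 0.96, 1.61 and 0.71 in the same order, and among the genes named by rule only Sfrs18 changed sign, to 0.08. In the second comparison 0 genes were called under every threshold and filter tried. No paired analysis was possible because the table has no value per library, and for the same reason leaving out a library and other test programs were not run. Depth is unknown. The implied intervals are the only measure of precision, and how the spread behind them was estimated is not known.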

Other observations

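Among the small nuclear RNAs themselves, which serve as the cores of the particles, the table lists Rnu12 and Rnu11, both of the minor spliceosome. They were chosen after their values were seen. In the first comparison of the authors' deposited table Rnu12 stood at a log2 fold change of 3.77 (adjusted p = 0.00058) and Rnu11 at 1.82 (adjusted p = 0.26), and neither was called in the second.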
